A study of Mus musculus with 18 samples.

Results

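The respiratory chain and ATP synthase genes were taken from the array annotation by symbol: Nduf subunits of complex I, the Sdh subunits of complex II, Uqcr genes of complex III, Cox4 to Cox8 genes of complex IV and Atp5 genes of complex V. Only transcript clusters (the array's measuring units) assigned to exactly 1 gene were used, and a gene with several was represented by the one of highest mean signal. The rule found 89 of the 22180 genes measured this way. They comprised 32 genes of complex I, 4 of complex II, 7 of complex III, 19 of complex IV, 17 of complex V, 8 Ndufaf genes, whose products assemble complex I and are not part of it, and 2 pseudogenes, Atp5c1-ps and Uqcrh-ps1. Ndufa4, named as a complex I subunit but now placed in complex IV, and its relative Ndufa4l2 were counted with complex IV. Atp5d, Atp5e, Atp5g2, Atp5h, Cox5b, Cox7b, Ndufa11, Ndufa12 and Ndufa8 had several clusters, and taking the mean of these gave 29, 27 and 39 tissue calls, against 30, 26 and 37, for ovary against hypothalamus, ovary against pituitary and hypothalamus against pituitary. Uqcr10, Cox6c and Ndufb2 lay only on clusters shared with another gene and are not members.

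Ovary, hypothalamus and pituitary of female mice, of a strain labelled BABL/c, were profiled on Affymetrix Mouse Gene 2.0 ST arrays. Littermates of 10 pairs were split at 6 weeks of age between a stress group, which was transported, and a control group that was not. The labels give the transport as 1000 km in 10 h at a speed of 50 km/h, values that cannot all hold together. All mice, controls included, were superovulated at 9 weeks. Stress and control each contributed 3 arrays per tissue: the mouse that ovulated most oocytes (the high mouse), the one that ovulated fewest (the low mouse) and a pool of the other 8 mice. A group therefore rests on 2 single mice and a pool that each gave all 3 tissues, and high and low ovulation are each represented by 1 mouse per treatment.

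Electrons from NADH enter the chain at complex I and those from succinate at complex II. They pass through ubiquinone, complex III and cytochrome c to complex IV, which reduces oxygen, while complexes I, III and IV pump protons that complex V uses to make ATP. Most subunits are encoded in the nucleus and are listed here, and a few core subunits are encoded in mitochondrial DNA. Several complex IV subunits and the c subunit of ATP synthase have more than 1 nuclear gene, and some of the isoforms are known from heart and skeletal muscle (Cox6a2, Cox7a1, Cox8b), from testis (Cox6b2, Cox8c) or from responses to low oxygen (Cox4i2, Ndufa4l2). Steroid synthesis in ovarian cells also starts in mitochondria, and neurons and hormone-secreting pituitary cells depend on respiration for ATP.

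Values are log2 signals as deposited, so a difference of 1 is 2-fold, and levels are compared between arrays and not between genes. Of the members, 80 had a mean at or above that of the median gene (5.70) and 9 below it. Over all genes, arrays correlated at 0.941 to 0.993 within a tissue and at 0.828 to 0.941 across tissues. Marker genes went with the tissue labels: the 9 hypothalamic neuron markers that were measured all passed as higher in hypothalamus than in either other tissue, as did all 7 pituitary hormone-cell markers in pituitary and all 8 steroidogenic and granulosa markers in ovary. Some pool arrays also held transcripts of another tissue. The growth hormone gene Gh read 10.46 in the stressed and 10.08 in the control ovary pool against 5.01 to 5.90 in single-mouse ovaries, and Cyp11a1, which cleaves cholesterol in steroid-making cells, was at 11.34 in the pool of stressed pituitaries against 3.51 to 5.31 in single-mouse pituitaries, and at 10.52 in that of stressed hypothalami against 4.10 to 6.99 in single-mouse hypothalami. In whole tissue, fewer cells of a type and less RNA per cell cannot be told apart.

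The median level of the 89 members was 8.51, 8.15 and 8.10 in the high mouse, the low mouse and the pool of stressed ovaries, against 8.79, 8.33 and 8.06 in control ovaries. In hypothalami the same medians were 8.60, 8.67 and 8.06 under stress, against 8.89, 8.47 and 7.95 in controls. In pituitaries they were 7.90, 8.12 and 8.22 under stress, against 8.57, 8.26 and 8.14 in controls. The high control mouse had the highest median in each of the 3 tissues, and the stressed and control arrays overlapped in each.

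**Figure D1:**
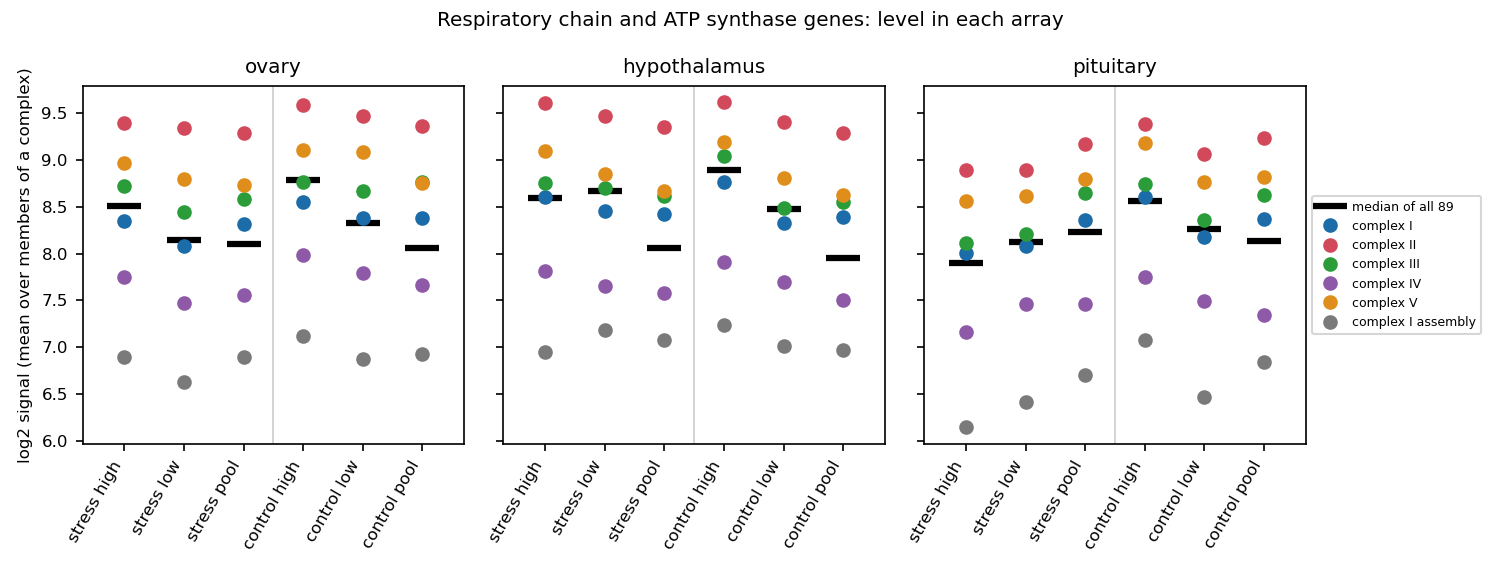
Log2 signal in each of the 18 arrays, by tissue, with stressed arrays left of control arrays in each panel. Coloured points are the mean over the members of a complex and the black bar is the median over all 89 members; heights of different complexes come from different probes and are not compared. The bar lies highest in the high control mouse of each tissue, at 8.79 in ovary, 8.89 in hypothalamus and 8.57 in pituitary.

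Tissues were compared within the same mouse or pool (limma with the mouse or pool as a block, on all 18 arrays). The hypothalamus read higher than the pituitary for 32 of the 89 members and lower for 5 at an adjusted p under 0.05, where 20.8% of all genes passed as higher and 21.5% as lower. Between ovary and pituitary, 20 members passed as higher in ovary and 6 as lower, against 23.2% and 20.3% of all genes. Between ovary and hypothalamus, 10 passed as higher in ovary and 20 as lower, against 27% and 22.3% of all genes. The median member difference was -0.09 for ovary minus hypothalamus, 0.16 for ovary minus pituitary and 0.23 for hypothalamus minus pituitary, and the medians over all genes were 0.03, -0.01 and -0.04. When each array was centred on its median, the split between ovary and hypothalamus became 16 higher and 14 lower and the member median -0.0029, with an all-gene median of 0.11. The pool arrays and the block both bear on these counts: without the pools 17, 21 and 36 members passed, and with no block 17, 17 and 23, for ovary against hypothalamus, ovary against pituitary and hypothalamus against pituitary. Of the calls named in the following, 21 were lost with no block (adjusted p = 0.0596 to 0.721): Cox7a2l, Ndufa1, Ndufa2, Ndufa4, Ndufa5 and Ndufaf1 between hypothalamus and pituitary, Atp5mpl, Cox7b2, Ndufa1, Ndufa5, Ndufaf1, Ndufaf3 and Ndufaf6 between ovary and hypothalamus, and Atp5mpl, Ndufa1, Ndufa4, Ndufaf1, Ndufaf3, Ndufc1, Uqcrh and Uqcrq between ovary and pituitary. Over the 87 protein-coding members, the difference had a Spearman's rho with the length of the gene's genomic span of -0.26 for ovary minus hypothalamus, 0.17 for ovary minus pituitary and 0.35 for hypothalamus minus pituitary (across genes, which are not independent).

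**Figure D2:**
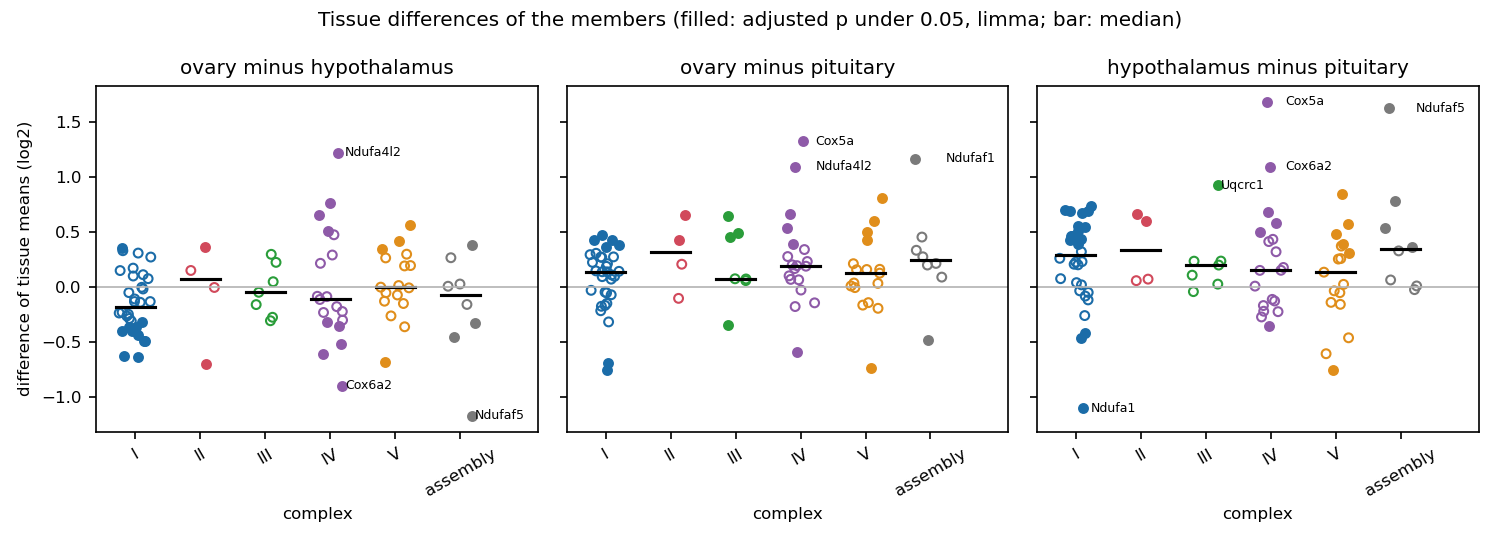
Difference of tissue means (log2, vertical axis) of each member by complex, in the 3 pairs of tissues. Filled points passed at an adjusted p under 0.05 (limma), open points did not, and the bar is the median of the complex; members over 0.9 in either direction are named. Cox5a and Ndufaf5 lie at the top of the hypothalamus minus pituitary panel, at 1.69 and 1.63, and Ndufa1 at its bottom, at -1.11.

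Of the 32 complex I genes, 15 were higher and 3 lower in hypothalamus than in pituitary, with a median difference of 0.29. Over all genes 20.8% passed as higher and 21.5% as lower there. Ndufa9 (0.73 ± 0.10, adjusted p = 1.29e-05), Ndufa5 (0.70) and Ndufa10 (0.69), all accessory subunits around the catalytic core, had the largest of these differences (errors are SE throughout). Ndufa1, a small membrane subunit needed for assembly of the complex, went the other way. It read 6.51, 8.85 and 9.47 in hypothalami and 7.45, 9.96 and 10.70 in pituitaries (lowest, median and highest of 6 arrays), a difference of -1.11 ± 0.13, adjusted p = 1.35e-06. The ranges overlap, since the pools of every tissue lay more than 2-fold below the single mice, and without the block the adjusted p was 0.196. Ndufv3 and Ndufa2 were also lower in hypothalamus (-0.46 and -0.42), and the Ndufa2 call was lost without the pools (adjusted p = 0.300), without the stressed pool (0.0700) and without the control pool (0.0807).

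Against ovary, 10 complex I genes were higher in hypothalamus and 1 was lower, where 22.3% and 27% of all genes passed in these directions. Ndufb10 had a difference of -0.64 ± 0.14, adjusted p = 0.000881 for ovary minus hypothalamus, with Ndufa5 at -0.63 and Ndufa11 at -0.50. The member higher in ovary was Ndufa1 (0.35), a call lost without the pools (0.19, adjusted p = 0.355), without the high stressed mouse (0.0899) and without either pool (0.0948 and 0.136). Between ovary and pituitary 5 of the 32 complex I genes were higher in ovary, where 23.2% of all genes passed as higher. The largest differences were those of Ndufc1 (0.47), Ndufab1 (0.43), the mitochondrial acyl carrier protein, and Ndufa10 (0.43). Ndufa1 (-0.75) and Ndufv3 (-0.69), a flavoprotein-side accessory subunit, were the 2 lower in ovary (20.3% of all genes). Without the block the calls of Ndufc1 (adjusted p = 0.263) and Ndufa1 (0.395) were lost. Ndufab1 was at 0.43 with an adjusted p of 0.0511 without the pools.

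The 4 complex II genes, which encode the enzyme shared with the citric acid cycle, did not order the tissues the same way. Sdha, the flavoprotein that oxidises succinate, read 9.82, 9.99 and 10.18 in ovaries, 10.54, 10.68 and 10.93 in hypothalami and 10.04, 10.10 and 10.17 in pituitaries. All 6 hypothalami lay above every ovary and every pituitary, with differences of -0.70 ± 0.10, adjusted p = 8.94e-06 for ovary minus hypothalamus and 0.60 ± 0.10, adjusted p = 8.17e-05 for hypothalamus minus pituitary. Sdhb, the iron-sulfur subunit, read 8.46, 9.00 and 9.34 in ovaries, 8.39, 8.99 and 9.51 in hypothalami and 7.90, 8.30 and 8.85 in pituitaries, and its pituitary values were lower than in both other tissues with overlapping ranges (0.66 for ovary minus pituitary, 0.66 for hypothalamus minus pituitary, adjusted p = 0.00305 for the second). Sdhd, a membrane anchor, was higher in ovary than in hypothalamus (0.36 ± 0.11, adjusted p = 0.00987) and pituitary (0.43 ± 0.11, adjusted p = 0.0034); the first had an adjusted p of 0.088 without the pools. Sdhc, the other anchor, read 8.96, 9.10 and 9.48 in ovaries, 8.87, 9.00 and 9.15 in hypothalami and 8.66, 8.98 and 9.16 in pituitaries and passed in no pair of tissues.

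Of the 7 complex III members, 1 passed between hypothalamus and pituitary, 4 between ovary and pituitary and 0 between ovary and hypothalamus (limma, lowest adjusted p = 0.0603 in the last pair). Over all genes 20.8% passed as higher and 21.5% as lower in the first pair, 23.2% and 20.3% in the second, and 27% and 22.3% in the last. Uqcrc1, a core protein, was lowest in pituitary: it read 9.81, 9.88 and 10.19 in ovaries, 9.93, 10.18 and 10.48 in hypothalami and 8.85, 9.10 and 9.83 in pituitaries. Its differences were 0.93 ± 0.12, adjusted p = 7.44e-06 for hypothalamus minus pituitary and 0.65 ± 0.12, adjusted p = 0.000295 for ovary minus pituitary. Uqcrfs1, the Rieske iron-sulfur protein (0.46), and Uqcrq (0.50) were also higher in ovary than in pituitary, and Uqcrh, the hinge protein, was lower (-0.35). The Uqcrq call was lost without the high stressed mouse (0.33, adjusted p = 0.0776), the low stressed mouse, the low control mouse or the control pool (0.0502 to 0.0573). The Uqcrh call was lost without the pools (0.134), with centred arrays (0.0832) and without any 1 mouse or pool other than the high stressed mouse (0.0588 to 0.114).

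Complex IV held the largest tissue differences among the subunits. Cox5a, a subunit on the matrix side of cytochrome c oxidase, read 8.52, 9.60 and 9.82 in ovaries, 8.90, 9.99 and 10.21 in hypothalami and 7.63, 7.98 and 8.37 in pituitaries. Every ovary and every hypothalamus lay above every pituitary, with differences of 1.33 ± 0.14, adjusted p = 3.49e-07 for ovary and 1.69 ± 0.14, adjusted p = 2.11e-08 for hypothalamus. Cox4i1, the common form of subunit 4, was highest in hypothalamus (-0.52 ± 0.15, adjusted p = 0.00774 for ovary minus hypothalamus and 0.69 ± 0.15, adjusted p = 0.00118 for hypothalamus minus pituitary). Cox8a was also lower in ovary than in hypothalamus (-0.32), a call lost without the pools (adjusted p = 0.100), without the stressed pool (0.0515) or with centred arrays (0.0551). Cox7a2l has been described as a link of complexes III and IV in supercomplexes, a role not examined here for this strain. Cox7a2l was lower in ovary (-0.59) and in hypothalamus (-0.36) than in pituitary, the second lost without the pools (adjusted p = 0.0699) or without either low mouse or the control pool (0.0510 to 0.0709).

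Forms known from muscle, testis or low oxygen differed between tissues in several isoform sets. Cox6a1 read 12.42, 12.60 and 12.74 in ovaries, 12.56, 12.67 and 12.87 in hypothalami and 12.33, 12.58 and 12.65 in pituitaries and passed in no pair of tissues. Cox6a2, the heart and muscle form, read 5.60, 5.28 and 5.57 in stressed and 5.92, 5.90 and 5.87 in control ovaries, in the order high mouse, low mouse and pool. It read 6.24, 6.41 and 6.39 in stressed hypothalami, against 6.96, 6.98 and 6.57 in control hypothalami, and 5.19, 6.33 and 5.54 in stressed pituitaries, against 5.68, 5.22 and 5.03 in control pituitaries. Hypothalamus was thus higher than pituitary by 1.09 ± 0.19, adjusted p = 0.000128, and ovary minus hypothalamus was -0.90 ± 0.19, adjusted p = 0.000593, with 1 stressed pituitary (the low mouse) within the hypothalamic range. Parvalbumin interneurons carry Cox6a2 in mouse brain, and 5 markers were counted for them: Pvalb, Gad1, Kcnc1, Kcnc2 and Erbb4. All 5 passed as higher in hypothalamus than in ovary and pituitary, where 22.3% and 20.8% of all genes did. The 9 measured hypothalamic neuron markers passed the same way, so the 5 do not single out this cell type. The 5 markers had a log2 summed level of 9.43 to 10.37 in hypothalamus against 7.70 to 8.35 in pituitary. Of 10 skeletal muscle markers 0 passed as higher in hypothalamus against pituitary and 1 as lower (limma), with sums of 8.21 to 8.71 in hypothalamus against 8.09 to 8.48 in pituitary. The part of these cell types in the Cox6a2 difference was not tested.

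Ndufa4l2, a relative of Ndufa4 that low oxygen induces, was higher in ovary than in both other tissues. It read 7.07, 6.65 and 5.59 in stressed ovaries, against 7.30, 7.18 and 6.04 in control ovaries. In the other tissues it read 5.60, 5.44 and 4.74 in stressed hypothalami, against 5.67, 5.91 and 5.10 in control hypothalami, and 5.62, 6.02 and 5.23 in stressed pituitaries, against 5.50, 5.99 and 4.90 in control pituitaries. The single-mouse ovaries, at 6.65 to 7.30, lay above every array of hypothalamus and pituitary, and the differences were 1.22 ± 0.15, adjusted p = 2.26e-06 against hypothalamus and 1.10 ± 0.15, adjusted p = 1.25e-05 against pituitary. Ndufa4 itself was at 0.39 ± 0.14, adjusted p = 0.0287 for ovary minus pituitary, and did not pass between ovary and hypothalamus (-0.12). The Ndufa4 call was lost without the block (0.551), with quantile-normalised arrays (0.156) and without either high mouse, the low control mouse or the control pool (0.0591 to 0.112). Cox4i2 was also higher in ovary than in hypothalamus (0.51 ± 0.16, adjusted p = 0.0114), opposite to Cox4i1, but with an adjusted p of 0.0619 without the pools and 0.0539 without the low control mouse. Cox4i2 read 6.40, 5.88 and 6.65 in stressed ovaries, against 6.60, 6.67 and 7.04 in control ovaries, and 5.79, 5.64 and 6.39 in stressed hypothalami, against 6.25, 5.83 and 6.28 in control hypothalami. In pituitary it read 6.30, 6.35 and 6.41 in stressed pituitaries, against 5.76, 6.19 and 6.20 in control pituitaries.

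Ndufa4l2 and Cox4i2 are also known from pericytes, and of 8 pericyte and mural cell markers 6 were higher and 1 lower in ovary than in hypothalamus, and 5 higher and 1 lower in ovary than in pituitary. Their summed level (log2) was 11.17 to 11.42 in ovary, 10.32 to 11.17 in hypothalamus and 10.47 to 10.90 in pituitary. Of 6 endothelial markers, 5 were higher and 0 lower in ovary than in hypothalamus, and 6 higher and 0 lower in ovary than in pituitary. The endothelial sums were 11.26 to 11.55 in ovary, 9.24 to 9.71 in hypothalamus and 9.55 to 10.10 in pituitary. Of 12 measured hypoxia-induced genes, 7 were higher and 3 lower in ovary than in hypothalamus, and 5 were higher and 2 lower in ovary than in pituitary. Over all genes 27% passed as higher and 22.3% as lower in ovary against hypothalamus, and 23.2% and 20.3% in ovary against pituitary. Cox4i2 did not pass between ovary and pituitary. The part of pericytes or endothelial cells in the Ndufa4l2 and Cox4i2 differences was not tested.

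Cox7a1 and Cox6b2 shared the higher level in ovary. Cox7a1, the heart and muscle form, read 6.40, 5.90 and 6.54 in stressed ovaries, against 6.57, 6.56 and 7.19 in control ovaries. It read 6.13, 5.57 and 5.93 in stressed hypothalami, against 6.10, 5.49 and 6.01 in control hypothalami, and 5.34, 5.97 and 5.81 in stressed pituitaries, against 6.13, 5.82 and 6.12 in control pituitaries. The differences were 0.65 ± 0.16, adjusted p = 0.00196 against hypothalamus and 0.66 ± 0.16, adjusted p = 0.00227 against pituitary, and both were just outside the threshold without the pools (0.0507 and 0.0522). Cox7a2, its common counterpart, passed in no pair of tissues, at -0.18 for ovary minus hypothalamus and -0.03 for ovary minus pituitary. Cox6b2, the testis form, read 6.06, 6.15 and 6.10 in stressed ovaries, against 6.85, 5.96 and 6.36 in control ovaries. It read 5.43, 5.18 and 5.74 in stressed hypothalami, against 5.84, 5.22 and 5.49 in control hypothalami, and 5.51, 5.78 and 5.68 in stressed pituitaries, against 5.84, 5.59 and 5.84 in control pituitaries, which gave differences of 0.76 ± 0.12, adjusted p = 2.38e-05 against hypothalamus and 0.54 ± 0.12, adjusted p = 0.00106 against pituitary. Every ovary read above every hypothalamus and every pituitary for Cox6b2. Cox6b1 passed in no pair (-0.09 for ovary minus hypothalamus).

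The remaining isoforms were at the bottom of the scale or did not pass. Cox7b2 read 2.19, 2.69 and 3.27 in ovaries, 2.65, 3.38 and 3.96 in hypothalami and 2.34, 2.58 and 3.91 in pituitaries, well below the median gene, with -0.61 ± 0.22, adjusted p = 0.0279 for ovary minus hypothalamus; the call was lost without the pools (0.0967) and without the low control mouse (-0.45, 0.132), the low stressed mouse (0.0634) or the control pool (0.0628). Cox7b did not pass in any pair, at 0.41 for hypothalamus minus pituitary. Cox8b (3.63, 4.15 and 4.91 in ovaries, 2.78, 3.81 and 4.02 in hypothalami and 3.23, 4.01 and 4.17 in pituitaries) and Cox8c (3.10, 3.22 and 3.49 in ovaries, 2.86, 3.07 and 3.20 in hypothalami and 2.80, 3.14 and 3.74 in pituitaries) passed in no pair of tissues.

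**Figure D3:**
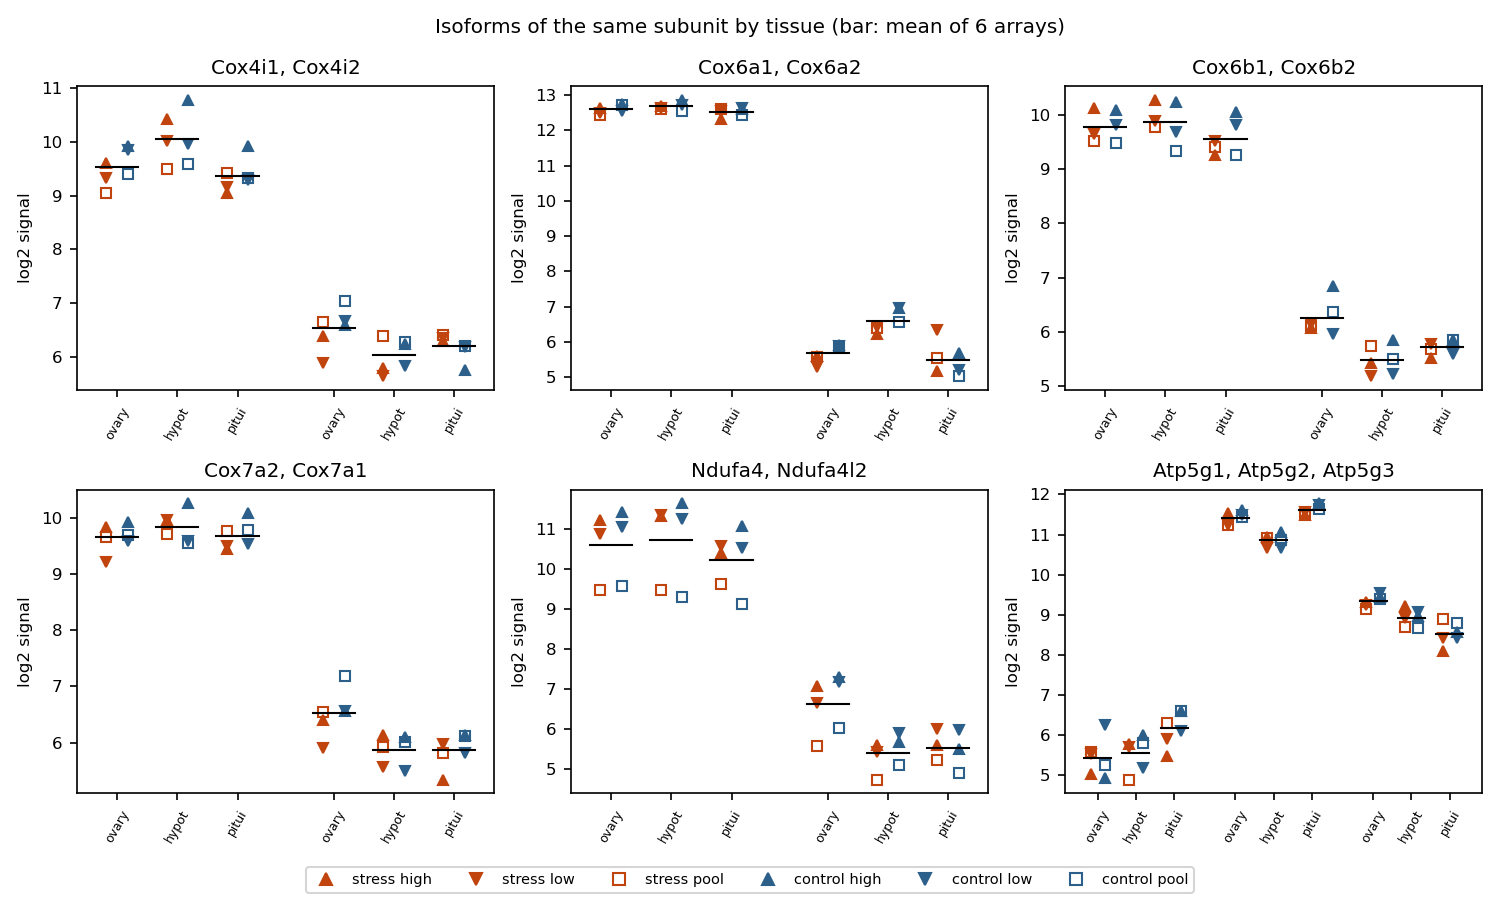
Log2 signal of 6 isoform sets in every array, by tissue (ovary, hypothalamus, pituitary from left to right for each gene, genes in the order of the panel title). Stress points (red) stand left of control points (blue), triangles are the high and low mice, open squares the pools and the bar the mean of 6 arrays. Ndufa4l2, Cox7a1 and Cox6b2 lie higher in ovary and Cox6a2 higher in hypothalamus, while Cox6a1 spans 12.33 to 12.87 over all arrays.

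In complex V, the 3 genes for the c subunit of the proton-driven ring encode the same mature protein and differ in the targeting sequence that is removed on import. They ordered the tissues in 3 ways. Atp5g1 was higher in pituitary than in ovary. It read 5.04, 5.53 and 5.58 in stressed ovaries, against 4.93, 6.25 and 5.25 in control ovaries, and 5.49, 5.91 and 6.31 in stressed pituitaries, against 6.60, 6.11 and 6.60 in control pituitaries, a difference of -0.74 ± 0.24, adjusted p = 0.0181 for ovary minus pituitary that was lost without the pools (0.128), the high control mouse (0.0849) or the control pool (0.0832). Its hypothalamic values were 5.77, 5.70 and 4.89 in stressed hypothalami, against 6.01, 5.19 and 5.80 in control hypothalami. Atp5g2 was lowest in hypothalamus, with no overlap with the other tissues. It read 11.54, 11.24 and 11.24 in stressed ovaries, against 11.60, 11.48 and 11.43 in control ovaries. It read 10.94, 10.67 and 10.93 in stressed hypothalami, against 11.07, 10.67 and 10.86 in control hypothalami, and 11.49, 11.57 and 11.51 in stressed pituitaries, against 11.78, 11.73 and 11.63 in control pituitaries, with 0.57 ± 0.10, adjusted p = 0.00014 for ovary minus hypothalamus and -0.76 ± 0.10, adjusted p = 8.59e-06 for hypothalamus minus pituitary. Atp5g3 was highest in ovary and lowest in pituitary. It read 9.31, 9.24 and 9.15 in stressed ovaries, against 9.45, 9.54 and 9.38 in control ovaries. In the other tissues it read 9.22, 8.93 and 8.71 in stressed hypothalami, against 8.96, 9.07 and 8.66 in control hypothalami, and 8.11, 8.43 and 8.90 in stressed pituitaries, against 8.57, 8.42 and 8.79 in control pituitaries. The Atp5g3 difference was 0.81 ± 0.15, adjusted p = 0.000172 for ovary minus pituitary, and the calls against hypothalamus (0.42 for ovary minus hypothalamus, 0.39 for hypothalamus minus pituitary) were not stable. The first was lost without the pools (0.0932) and without the control pool, the high or the low control mouse (0.0528 to 0.0794). The second was lost with quantile-normalised arrays (0.165) and without any 1 of the 4 single mice (0.0832 to 0.185).

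Among the other ATP synthase genes, Atp5o, the stalk subunit that joins the catalytic head to its stator, was lower in ovary than in hypothalamus (-0.68 ± 0.17, adjusted p = 0.00231) and higher in hypothalamus than in pituitary (0.84 ± 0.17, adjusted p = 0.000508). Atp5b, the catalytic beta subunit, was lower in pituitary than in ovary (0.50) and hypothalamus (0.57). Atp5pb, a stator subunit, was higher in hypothalamus than in pituitary (0.49), with an adjusted p of 0.0587 without the pools. Atp5mpl, a small membrane subunit, was higher in ovary than in hypothalamus (0.34) and pituitary (0.60). Both calls were lost without the block (adjusted p = 0.703 and 0.475), and the first also without the pools (0.20, adjusted p = 0.389) and without the high stressed mouse, the low control mouse or either pool (0.0723 to 0.136).

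Of the 8 complex I assembly factors, 4 were higher in hypothalamus than in pituitary and 0 lower (limma, where 20.8% of all genes passed as higher and 21.5% as lower). Ndufaf5, which modifies the core subunit Ndufs7, read 5.26, 5.63 and 5.79 in ovaries, 6.31, 6.81 and 7.18 in hypothalami and 4.49, 5.08 and 5.99 in pituitaries. All 6 hypothalami lay above every other array, with differences of -1.18 ± 0.20, adjusted p = 6.92e-05 for ovary minus hypothalamus and 1.63 ± 0.20, adjusted p = 2.75e-06 for hypothalamus minus pituitary. Ndufaf1, which acts early in assembly of the membrane arm, was lowest in pituitary (1.17 ± 0.13, adjusted p = 8.79e-07 for ovary minus pituitary, 0.79 for hypothalamus minus pituitary); it is among the members highest in the pools, and both calls were lost without the block (adjusted p = 0.0942 and 0.287). Its call between ovary and hypothalamus (0.38) was lost without the pools (0.25, adjusted p = 0.298) and without the high stressed mouse, the low control mouse or either pool (0.0523 to 0.103). Ndufaf3 was lower in ovary than in hypothalamus (-0.46) and pituitary (-0.48), and Ndufaf6 lower in ovary than in hypothalamus (-0.33) and higher in hypothalamus than in pituitary (0.54). The Ndufaf3 difference from pituitary was -0.31 without the pools (adjusted p = 0.110) and the Ndufaf6 difference from hypothalamus -0.28 (0.171). This Ndufaf6 call was also lost with quantile-normalised (0.118) or centred arrays (0.127), and without the high control mouse, the low stressed mouse or the stressed pool (0.0766 to 0.176).

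Other genes of energy metabolism were counted in the same fits from lists made with earlier results known. The counts stand beside shares of all genes of 20.8% higher and 21.5% lower in hypothalamus against pituitary. For ovary against hypothalamus these shares were 27% and 22.3%. None of the 13 mitochondrially encoded subunits had a cluster of its own. In the citric acid cycle 8 of 15 genes were higher and 1 lower in hypothalamus than in pituitary, with Idh3a, a subunit of isocitrate dehydrogenase, at 1.43 ± 0.14 (adjusted p = 1.96e-07) and Cs, citrate synthase, at 1.02 ± 0.14 (adjusted p = 1.15e-05). In glycolysis and lactate metabolism 14 of 16 were higher and 0 lower there, led by the neuronal or astrocytic forms Aldoc (2.25) and Eno2 (1.98). Among 14 electron carriers and other chain enzymes, 7 were higher and 3 lower. Cyc1, cytochrome c1, a complex III subunit outside the naming patterns, was at 1.19. Etfdh, which passes electrons from fat oxidation to ubiquinone, was at -1.87. Of 31 assembly factors outside the naming patterns 9 were higher and 6 lower, with Atpaf1, a chaperone of ATP synthase, among the higher (adjusted p = 1.1e-06) and at 0.89 for ovary minus pituitary. Of 18 carriers, pores and import proteins 8 were higher and 1 lower, with Vdac1, the outer membrane pore, at 1.11, and of 4 uncoupling proteins 3 were higher and 0 lower. Between ovary and hypothalamus, 2 genes were higher and 6 lower in the citric acid cycle, 3 and 7 in glycolysis, 5 and 3 among electron carriers, and 7 and 5 among carriers and pores. Of 16 regulators of mitochondrial biogenesis, 5 were higher and 3 lower in hypothalamus than in pituitary. In ovary 6 of them were higher and 4 lower than in hypothalamus, with a median difference of 0.17. Ppargc1a, the coactivator PGC-1α, was at 2.48 ± 0.17 for hypothalamus minus pituitary and -3.86 ± 0.17 for ovary minus hypothalamus (adjusted p = 1.73e-09 and 2.18e-12).

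NRF1, GABPA, ERRα and YY1 are transcription factors known to act on nuclear genes of the chain, so the promoters of the members were searched for their core motifs. RefSeq (assembly GRCm38.p6) gave a promoter of 250 bases before to 50 after the gene start for 72 of the 89 members and for 27025 genes in all, and both strands were searched. The NRF1 motif (GCGCA, any base, then GCGC) was in 17 of 72 member promoters (23.6%) and in 5.19% of all promoters. The GABPA motif CCGGAAG was in 19 (26.4%, all promoters 9.93%), the YY1 motif AAGATGGCG in 7 (9.72%, all promoters 1.64%) and the ERRα motif TCAAGGTCA in 2 (2.78%, all promoters 0.466%). The SP1 motif GGGCGGGG was in 15 (20.8%, all promoters 19.6%). An NRF1 or a GABPA match was in 32 (44.4%, all promoters 14.0%), and both were in 4 (5.56%, all promoters 1.12%): Atp5h, Atp5k, Cox6a1 and Sdhd. None of the 5 motifs contains another, a match is a description of the letters and not a binding site, and no match says only that these letters are absent from this window.

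The 160 bases before the start of 6 members described above are shown because these genes differ in tissue order (Sdha and Sdhd of one enzyme, Atp5g2 and Atp5g3 for one protein) or have the largest difference (Cox5a) or none that passed (Cox6a1). Capitals mark NRF1, GABPA, YY1 and ERRα matches on either strand, and each run reads 5′ to 3′ in the direction of the gene. Sdha (chr13:74350241-74350400, minus strand) has 3 NRF1 matches, Sdhd (chr9:50603850-50604009, minus strand) has NRF1 then GABPA and, outside the stretch shown, an ERRα match, and Cox6a1 (chr5:115348959-115349118, minus strand) also has NRF1 then GABPA. Atp5g2 (chr15:102671048-102671207, minus strand) has 1 NRF1 match that meets the motif on both strands, Atp5g3 (chr2:73911327-73911486, minus strand) has an ERRα match and, outside the stretch shown, an NRF1 match, and Cox5a (chr9:57521072-57521231, plus strand) has none of these 4 motifs in the stretch shown. All of these lie just upstream of the annotated first exon of the gene named.
Sdha: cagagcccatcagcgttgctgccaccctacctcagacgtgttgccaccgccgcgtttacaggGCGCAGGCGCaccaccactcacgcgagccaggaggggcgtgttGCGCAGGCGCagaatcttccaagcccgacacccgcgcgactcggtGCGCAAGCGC
Sdhd: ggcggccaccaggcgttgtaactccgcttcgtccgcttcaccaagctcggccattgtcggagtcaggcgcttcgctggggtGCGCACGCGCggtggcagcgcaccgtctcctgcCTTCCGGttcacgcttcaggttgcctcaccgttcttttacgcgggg
Cox6a1: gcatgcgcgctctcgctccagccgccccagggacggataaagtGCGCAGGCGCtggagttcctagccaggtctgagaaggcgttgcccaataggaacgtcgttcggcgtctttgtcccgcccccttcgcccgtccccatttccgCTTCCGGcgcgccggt
Atp5g2: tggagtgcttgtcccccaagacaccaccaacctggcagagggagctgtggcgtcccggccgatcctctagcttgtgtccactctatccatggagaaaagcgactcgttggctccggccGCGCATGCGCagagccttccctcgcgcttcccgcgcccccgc
Atp5g3: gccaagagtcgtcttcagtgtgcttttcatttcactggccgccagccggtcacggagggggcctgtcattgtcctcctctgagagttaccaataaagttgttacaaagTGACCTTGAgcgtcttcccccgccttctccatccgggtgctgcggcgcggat
Cox5a: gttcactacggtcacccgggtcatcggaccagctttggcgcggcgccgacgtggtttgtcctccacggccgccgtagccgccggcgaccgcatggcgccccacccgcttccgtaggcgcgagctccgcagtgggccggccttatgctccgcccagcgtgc

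Stress was compared with control in each tissue by itself (limma on 6 arrays), which asks whether transport changed the members there. No member passed an adjusted p of 0.05 in ovary, hypothalamus or pituitary, and neither did any other gene (0% of 22180 in each). At an unadjusted p under 0.05 there were 3 members in ovary (2.67% of all genes), 1 in hypothalamus (1.1%) and 1 in pituitary (1.33%). For stress minus control 76 of 89 members lay below 0 in ovary, with a median of -0.17, and 82 of 89 in pituitary, with a median of -0.24, while in hypothalamus 47 lay below 0 and the median was -0.01. The medians over all genes were -0.02 in ovary, -0.02 in hypothalamus and -0.04 in pituitary. Members move together from array to array, so these counts are not 89 independent observations. With the ovulation class as a replicate block 0 members passed in each tissue, and 16, 1 and 6 had an unadjusted p under 0.05 in ovary, hypothalamus and pituitary, of 2198, 923 and 1110 genes in all.

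The median differed between pairs of arrays. In ovary the median member difference was -0.17 in the high mice, -0.25 in the low mice and -0.08 in the pools. In the same 3 pairs of ovaries the median was -0.20, -0.17 and -0.11 for the 71 mitochondrial ribosomal protein genes, -0.16, -0.13 and 0.01 for the 63 cytosolic ribosomal protein genes, -0.10, -0.04 and -0.09 for 5142 other protein-coding genes with a genomic span of at most 25034 bases and a mean log2 signal of at least 5.71, and -0.04, 0.0045 and -0.01 for all genes. In hypothalamus the member median was -0.17, 0.10 and 0.05, and in pituitary -0.64, -0.11 and 0.04. In the pituitary of the high mice 84 of 89 members lay below 0, and the mitochondrial ribosomal protein genes had a median of -0.59 there and the cytosolic ones one of -0.32, against -0.08 over all genes. Leaving out the high control mouse moved the pituitary median to -0.14 and leaving out the high stressed mouse to -0.15, without the pools it was -0.36, and with quantile-normalised arrays -0.16. In hypothalamus the median turned to 0.11 without the high control mouse and to 0.03 without the stressed pool.

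By complex, the ovarian medians ran from -0.20 in complex I (28 of 32 below 0) to -0.13 in the assembly factors (7 of 8 below 0), with -0.16 in complex II, -0.16 in complex III, -0.17 in complex IV and -0.14 in complex V. The pituitary medians ran from -0.32 in the assembly factors (8 of 8 below 0) and -0.30 in complex III (7 of 7) to -0.19 in complex IV (16 of 19) and complex V (16 of 17). In hypothalamus the medians ran from -0.05 in complex III to 0.04 in complex II.

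**Figure D4:**
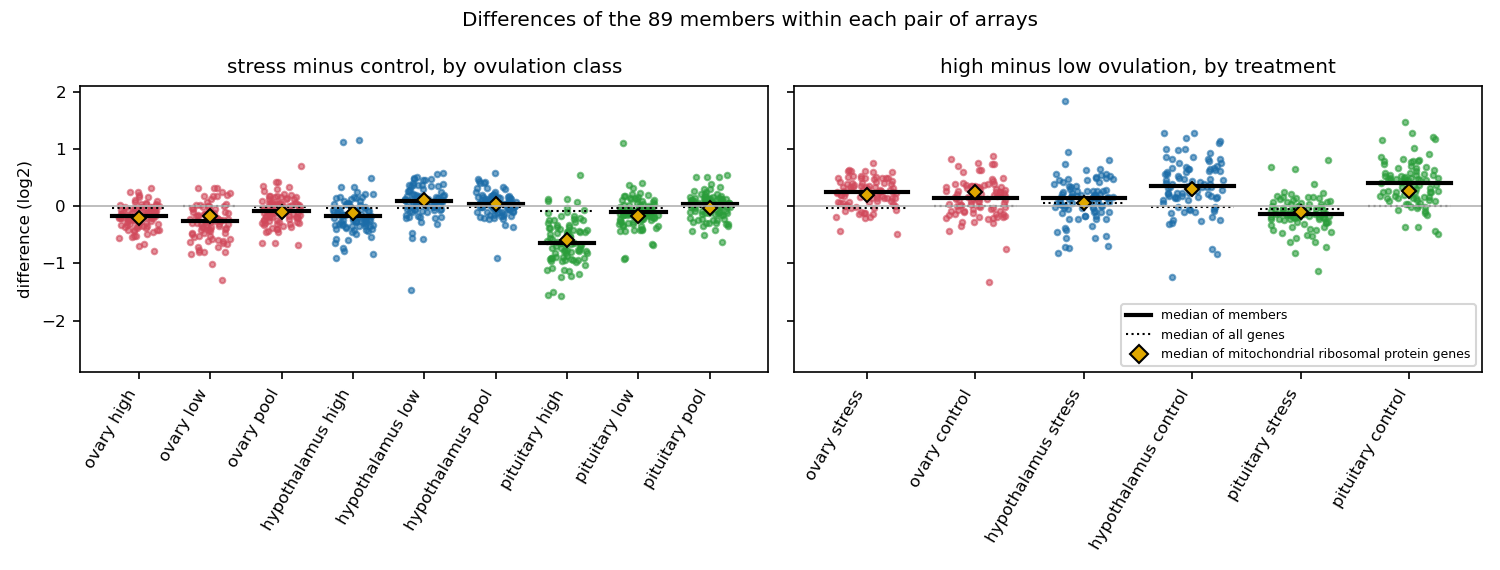
Difference (log2, vertical axis) of each of the 89 members within a pair of arrays: stress minus control in each ovulation class (left) and high minus low ovulation in each treatment (right). The thick bar is the median of the members, the dotted bar that of all genes and the diamond that of 71 mitochondrial ribosomal protein genes. The high mice of the pituitary stand lowest on the left, at a median of -0.64, and the control pituitary stands highest on the right, at 0.41.

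In the following, values are given in the order high mouse, low mouse and pool, and the p with the ovulation class as a replicate block stands after the unadjusted one. Members were named by the fit without the block. Of the 8 named in each tissue, 3 in ovary, 5 in hypothalamus and 6 in pituitary were also among the 4 of smallest p in their direction with it. With the block Atp5e (unadjusted p = 0.00535), Cox7a1 (0.0162), Ndufb11 (0.0177) and Uqcr11 (0.0189) had the smallest p on the lower side in ovary, each with an adjusted p of 0.499 in limma. Without the block the 4 members of smallest p that were lower under stress in ovary were Ndufa7, Cox6a2, Ndufb7 and Atp5o. Ndufa7, an accessory subunit of complex I, read 5.82, 5.76 and 6.40 in stressed ovaries, against 6.51, 6.56 and 6.49 in control ovaries (-0.53 ± 0.21, unadjusted p = 0.0334 and 0.0201 with the block). Cox6a2 read 5.60, 5.28 and 5.57 in stressed ovaries, against 5.92, 5.90 and 5.87 in control ovaries (-0.41 ± 0.17, unadjusted p = 0.0407 and 0.0206 with the block). Ndufb7, an accessory subunit on the intermembrane side, read 7.58, 7.51 and 7.96 in stressed ovaries, against 8.24, 8.08 and 8.06 in control ovaries (-0.44 ± 0.19, unadjusted p = 0.044 and 0.028 with the block). Atp5o read 5.71, 5.85 and 5.36 in stressed ovaries, against 5.95, 6.24 and 6.04 in control ovaries (-0.44 ± 0.19, unadjusted p = 0.0502 and 0.0193 with the block). In all 4 every stressed ovary lay below every control ovary, as in 8 members in all, where 4.07% of all genes were lower without overlap. No member was higher without overlap (4.71% of all genes). The other 4 were Atp5g3, Cox7a1, Ndufa10 and Ndufa11.

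On the other side of 0 in ovary were 3 subunits and a pseudogene, each with overlapping groups. Ndufs1, the largest core iron-sulfur subunit of complex I, read 8.35, 8.35 and 7.86 in stressed ovaries, against 8.03, 8.23 and 7.74 in control ovaries (0.19 ± 0.22, unadjusted p = 0.409 and 0.192 with the block). Uqcrc2, the second core protein of complex III, read 10.42, 10.18 and 10.76 in stressed ovaries, against 10.17, 9.95 and 10.63 in control ovaries (0.20 ± 0.24, unadjusted p = 0.418 and 0.153 with the block). Uqcrb, a small complex III subunit, read 11.21, 11.07 and 10.90 in stressed ovaries, against 11.23, 10.89 and 10.71 in control ovaries (0.11 ± 0.20, unadjusted p = 0.576 and 0.407 with the block). The pseudogene Atp5c1-ps read 2.21, 2.34 and 2.51 in stressed ovaries, against 1.96, 2.15 and 2.63 in control ovaries (0.11 ± 0.22, unadjusted p = 0.617 and 0.449 with the block), which is near the bottom of the scale.

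In hypothalamus Cox6a2 was the member with an unadjusted p under 0.05. It read 6.24, 6.41 and 6.39 in stressed hypothalami, against 6.96, 6.98 and 6.57 in control hypothalami (-0.49 ± 0.20, unadjusted p = 0.0343 and 0.0174 with the block), with every stressed array below every control array, as in ovary. Lower without overlap held for 1 member here (2.6% of all genes), and higher without overlap for 1, Ndufs3, a core subunit of complex I (1.94% of all genes). The next 3 on the lower side overlapped between groups. Ndufa4l2 read 5.60, 5.44 and 4.74 in stressed hypothalami, against 5.67, 5.91 and 5.10 in control hypothalami (-0.30 ± 0.29, unadjusted p = 0.33 and 0.0756 with the block). Ndufaf2, an assembly factor related to Ndufa12, read 5.30, 6.02 and 5.69 in stressed hypothalami, against 6.08, 5.92 and 5.60 in control hypothalami (-0.19 ± 0.24, unadjusted p = 0.44 and 0.376 with the block). Atp5c1-ps read 2.12, 2.12 and 2.54 in stressed hypothalami, against 3.03, 2.03 and 2.36 in control hypothalami (-0.21 ± 0.28, unadjusted p = 0.459 and 0.385 with the block). The level of Atp5c1-ps was near the bottom of the scale in every array.

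The 4 on the higher side in hypothalamus also overlapped. Ndufa12, an accessory subunit, read 7.53, 7.37 and 7.53 in stressed hypothalami, against 7.59, 6.92 and 6.95 in control hypothalami (0.33 ± 0.23, unadjusted p = 0.184 and 0.0913 with the block). Ndufb7, lower under stress in ovary, read 8.20, 7.68 and 8.25 in stressed hypothalami, against 7.99, 7.39 and 7.93 in control hypothalami (0.27 ± 0.25, unadjusted p = 0.295 and 0.0729 with the block). Ndufaf6, an assembly factor, read 6.15, 6.00 and 6.52 in stressed hypothalami, against 6.08, 5.92 and 6.09 in control hypothalami (0.19 ± 0.20, unadjusted p = 0.371 and 0.225 with the block). Cox6b1, a subunit on the intermembrane side of complex IV, read 10.28, 9.89 and 9.78 in stressed hypothalami, against 10.25, 9.69 and 9.34 in control hypothalami (0.22 ± 0.27, unadjusted p = 0.423 and 0.163 with the block). In each the stressed low mouse and the stressed pool read above the control sample of their class.

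In pituitary Atp5j2, a membrane subunit of ATP synthase, had the smallest p. It read 4.57, 3.77 and 4.34 in stressed pituitaries, against 5.48, 4.69 and 4.96 in control pituitaries (-0.81 ± 0.30, unadjusted p = 0.0254 and 0.0021 with the block), with every stressed array lower, at a level below the median gene. Ndufaf2 read 4.61, 5.43 and 5.27 in stressed pituitaries, against 6.16, 5.48 and 5.68 in control pituitaries (-0.67 ± 0.30, unadjusted p = 0.0509 and 0.0527 with the block), also without overlap. Cox7b2 read 2.34, 2.51 and 2.66 in stressed pituitaries, against 3.91, 3.42 and 2.44 in control pituitaries (-0.75 ± 0.36, unadjusted p = 0.0676 and 0.0489 with the block), and its groups overlapped through the control pool. Ndufa11, a membrane-arm subunit, read 8.94, 9.07 and 9.29 in stressed pituitaries, against 10.07, 9.28 and 9.58 in control pituitaries (-0.54 ± 0.26, unadjusted p = 0.0695 and 0.0479 with the block), with 1 stressed pool above the lowest control. Lower without overlap held for 7 members (3.68% of all genes), the others being Atp5g2, Ndufa2, Ndufa3, Ndufb10 and Sdhb.

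Few members pointed upwards in the stressed pituitary, 7 of 89. Cox4i2 was the 1 member higher without overlap (2.4% of all genes) and read 6.30, 6.35 and 6.41 in stressed pituitaries, against 5.76, 6.19 and 6.20 in control pituitaries (0.30 ± 0.22, unadjusted p = 0.206 and 0.134 with the block). Cox6a2, lower under stress in the other tissues, read 5.19, 6.33 and 5.54 in stressed pituitaries, against 5.68, 5.22 and 5.03 in control pituitaries (0.38 ± 0.33, unadjusted p = 0.285 and 0.242 with the block), the low stressed mouse being the highest. Ndufa4l2 read 5.62, 6.02 and 5.23 in stressed pituitaries, against 5.50, 5.99 and 4.90 in control pituitaries (0.16 ± 0.33, unadjusted p = 0.645 and 0.393 with the block). Ndufs5, a small accessory subunit, read 5.04, 4.79 and 4.94 in stressed pituitaries, against 4.96, 4.41 and 5.19 in control pituitaries (0.07 ± 0.26, unadjusted p = 0.785 and 0.718 with the block). The last 3 overlapped between groups. Of the 8 steroidogenic and granulosa markers 8 lay above 0 for stress minus control in pituitary, with sums of 7.96 to 12.22 in stressed and 7.99 to 8.41 in control pituitaries. The highest sum was that of the stressed pool alone, and single-mouse pituitaries of both treatments had sums of 7.96 to 8.16. The part of these transcripts in the member values was not tested.

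Whether the stress difference itself differed between tissues was tested as an interaction on all 18 arrays with the mouse or pool as a block. No member and no other gene passed (0% of all genes in each of the 3 pairs of tissues). At an unadjusted p under 0.05 there were 2 members for ovary minus hypothalamus (2.52% of all genes), 2 for ovary minus pituitary (3.81%) and 4 for hypothalamus minus pituitary (3.77%). Ndufb7 differed by -0.72 ± 0.24 (unadjusted p = 0.00873, adjusted p = 1) for ovary minus hypothalamus, Cox4i2 by -0.76 ± 0.27 (0.0133, adjusted p = 1) for ovary minus pituitary and Cox6a2 by -0.87 ± 0.32 (0.0164, adjusted p = 1) for hypothalamus minus pituitary.

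High and low ovulation were compared in a model with class and treatment, which asks whether the mouse with most oocytes differs from the mouse with fewest. No member and no other gene passed in ovary, hypothalamus or pituitary (0% of all genes in each). Only 2 mice stand on each side, and the test had 2 residual degrees of freedom. At an unadjusted p under 0.05 there were 14 members in ovary (10.7% of all genes), 21 in hypothalamus (19.3%) and 3 in pituitary (5.23%). In the high mice 71 of 89 members lay above the low mice in ovary, 66 in hypothalamus and 62 in pituitary, with medians of 0.22, 0.23 and 0.09, against medians of all genes of -0.0027, 0.03 and -0.01. As for stress, these counts are not 89 independent observations.

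In both high mice 32 members read above both low mice in ovary (16.3% of all genes) and 4 below (19.5%), 45 above (25.6%) and 8 below (24%) in hypothalamus, and 10 above (14.4%) and 3 below (18.4%) in pituitary. The median difference was 0.24 within stress and 0.15 within control in ovary, and 0.15 and 0.36 in hypothalamus. In pituitary it was -0.13 within stress and 0.41 within control. Leaving out the high control mouse turned the pituitary median to -0.17, and leaving out the high stressed mouse gave 0.41, the low stressed mouse 0.21 and the low control mouse 0.03. In ovary the median was 0.14 without the low stressed mouse. In hypothalamus it was 0.15 without the high control mouse and 0.37 without the high stressed mouse. Mitochondrial ribosomal protein genes had medians of 0.19 and 0.25 in ovary, 0.05 and 0.29 in hypothalamus and -0.09 and 0.27 in pituitary, within stress and within control.

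In ovary the 4 members of smallest p that were higher in the high mice were Cox7b, Ndufs4, Ndufa2 and Ndufaf3. Cox7b, a small complex IV subunit, read 9.32 (stress) and 9.30 (control) in the high mice, against 8.56 and 8.56 in the low mice (0.75 ± 0.18, unadjusted p = 0.0045). Ndufs4, an accessory subunit whose loss causes brain disease in mice, read 8.90 (stress) and 8.93 (control) in the high mice, against 8.30 and 8.31 in the low mice (0.61 ± 0.16, unadjusted p = 0.00828). Ndufa2 read 9.22 (stress) and 9.59 (control) in the high mice, against 8.73 and 8.96 in the low mice (0.56 ± 0.16, unadjusted p = 0.0108). Ndufaf3, an assembly factor, read 8.38 (stress) and 8.79 (control) in the high mice, against 7.97 and 8.18 in the low mice (0.51 ± 0.16, unadjusted p = 0.0156). In all 4 both high mice lay above both low mice. The pools lay above all 4 single mice for Cox7b, at 10.32 under stress and 9.91 in controls, and for Ndufs4, at 9.73 and 9.46.

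Lower in the high mice in ovary was Atp5g1, which read 5.04 (stress) and 4.93 (control) in the high mice, against 5.53 and 6.25 in the low mice (-0.90 ± 0.26, unadjusted p = 0.0124). The pseudogene Uqcrh-ps1 read 3.20 (stress) and 3.42 (control) in the high mice, against 3.40 and 3.77 in the low mice (-0.27 ± 0.16, unadjusted p = 0.13), with overlap. Ndufaf7, a methyltransferase that modifies complex I, read 7.67 (stress) and 7.70 (control) in the high mice, against 7.77 and 7.99 in the low mice (-0.20 ± 0.16, unadjusted p = 0.269), without overlap. Atp5o read 5.71 (stress) and 5.95 (control) in the high mice, against 5.85 and 6.24 in the low mice (-0.21 ± 0.17, unadjusted p = 0.271), with overlap. Atp5b and Sdha were the other members lower in both high mice.

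In hypothalamus the 4 members of smallest p were higher in the high mice. Atp5e, the epsilon subunit in the central stalk of ATP synthase, read 8.90 (stress) and 9.07 (control) in the high mice, against 7.96 and 7.79 in the low mice (1.11 ± 0.17, unadjusted p = 0.000448). Its second cluster, of lower mean signal, read 6.39 (stress) and 6.71 (control) in the high mice, against 6.49 and 6.26 in the low mice, with overlap. Ndufb11, a membrane-arm subunit, read 6.10 (stress) and 5.93 (control) in the high mice, against 5.29 and 4.94 in the low mice (0.90 ± 0.17, unadjusted p = 0.00138). Ndufb8, of the same arm, read 7.32 (stress) and 7.31 (control) in the high mice, against 6.59 and 6.51 in the low mice (0.77 ± 0.16, unadjusted p = 0.00203). Ndufa6, an accessory subunit that binds the acyl carrier protein, read 9.84 (stress) and 10.17 (control) in the high mice, against 9.19 and 9.06 in the low mice (0.88 ± 0.18, unadjusted p = 0.00235). On the clusters used, all 4 were higher in both high mice, with an adjusted p of 0.135 each. When only genes at or above the median level were tested, 13 of 80 members passed in limma, each higher in the high mice (16.2%, where 1.77% of the 11090 genes passed as higher). In that fit 0 members passed as lower, where 6.12% of the genes did. The SE of Atp5e was 0.15 there, against 0.17 with all genes. Members vary together and the fit sets 2 mice against 2, so the 13 calls are not 13 independent results. With all 22180 genes tested, 23.6% of members had an unadjusted p under 0.05, against 19.3% of all genes. The members that passed were Atp5e, Ndufb11, Ndufb8, Ndufa6, Ndufb10, Ndufa7, Atp5k, Uqcrq, Uqcr11, Cox7a1, Ndufa2, Cox5b and Ndufb7, with adjusted p values of 0.0356 to 0.0496. Cox5b also had a second cluster, which read 5.28 (stress) and 5.34 (control) in the high mice, against 5.33 and 4.87 in the low mice.

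The hypothalamic members on the lower side included 2 large core subunits, Ndufs1 and Uqcrc2. Ndufs1 read 8.33 (stress) and 8.49 (control) in the high mice, against 8.89 and 8.74 in the low mice (-0.40 ± 0.17, unadjusted p = 0.0489). Ndufaf4, an assembly factor, read 6.69 (stress) and 6.96 (control) in the high mice, against 7.41 and 7.15 in the low mice (-0.45 ± 0.20, unadjusted p = 0.0623). Cox7b2 read 3.63 (stress) and 3.13 (control) in the high mice, against 3.65 and 3.96 in the low mice (-0.42 ± 0.23, unadjusted p = 0.113). Uqcrc2 read 10.21 (stress) and 10.32 (control) in the high mice, against 10.62 and 10.42 in the low mice (-0.25 ± 0.17, unadjusted p = 0.178). In these 4 and in Atp5a1, Atp5b, Ndufaf7 and Sdha both high mice lay below both low mice. With the length of the gene's genomic span, the high minus low difference of the 87 protein-coding members had a Spearman's rho of -0.12 in ovary, -0.40 in hypothalamus and -0.12 in pituitary, and the stress minus control difference one of 0.42, 0.04 and 0.15 in these tissues.

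In pituitary Atp5j2 read 4.57 (stress) and 5.48 (control) in the high mice, against 3.77 and 4.69 in the low mice (0.80 ± 0.21, unadjusted p = 0.00684), where the high stressed mouse lay below the low control mouse. Atp5l, a subunit at the dimer interface of ATP synthase, read 10.21 (stress) and 10.85 (control) in the high mice, against 9.81 and 9.68 in the low mice (0.78 ± 0.26, unadjusted p = 0.0175). Uqcrh-ps1 read 3.79 (stress) and 4.21 (control) in the high mice, against 3.14 and 3.40 in the low mice (0.73 ± 0.28, unadjusted p = 0.0321). Ndufa5, an accessory subunit of the matrix arm, read 6.92 (stress) and 8.00 (control) in the high mice, against 6.80 and 6.78 in the low mice (0.67 ± 0.30, unadjusted p = 0.056). The last 3 were higher in both high mice than in both low mice, with the wider gap in the control pair.

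On the lower side in pituitary Ndufa4l2 read 5.62 (stress) and 5.50 (control) in the high mice, against 6.02 and 5.99 in the low mice (-0.45 ± 0.21, unadjusted p = 0.0729), without overlap. Atp5d, the delta subunit of the central stalk, read 7.67 (stress) and 8.60 (control) in the high mice, against 8.29 and 8.96 in the low mice (-0.49 ± 0.28, unadjusted p = 0.116). Cox4i2 read 6.30 (stress) and 5.76 (control) in the high mice, against 6.35 and 6.19 in the low mice (-0.25 ± 0.22, unadjusted p = 0.298). Ndufa10 read 9.32 (stress) and 9.52 (control) in the high mice, against 9.46 and 9.88 in the low mice (-0.25 ± 0.23, unadjusted p = 0.304). These last 3 overlapped between high and low mice. The 2 members besides Ndufa4l2 that were lower in both high mice were the catalytic-head subunits Atp5a1 and Atp5b.

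In every tissue and treatment 7 members differed more than 2-fold between the pool and the single mice. Over the 6 combinations, Atp5l was lower in the pool than the mean of the single mice by a difference of -3.58 to -2.64, Ndufa1 by -2.65 to -1.87, Atp5mpl by -2.58 to -1.74 and Ndufb9 by -1.89 to -1.16. Atp5d was higher by 1.88 to 3.24, Ndufaf1 by 1.74 to 2.38 and Ndufs7, a core iron-sulfur subunit, by 1.25 to 1.72. These were 3 members on the higher side, where 0.419% of all genes met the same rule, and 4 on the lower side (0.41% of all genes). In a single combination 14.6% to 21.4% of members differed more than 2-fold, against 3.76% to 11.0% of all genes. Mice and pools differ in the number of animals, and the sources used here do not say what else differed in their handling, so each group's values mix 2 kinds of sample.

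**Figure D5:**
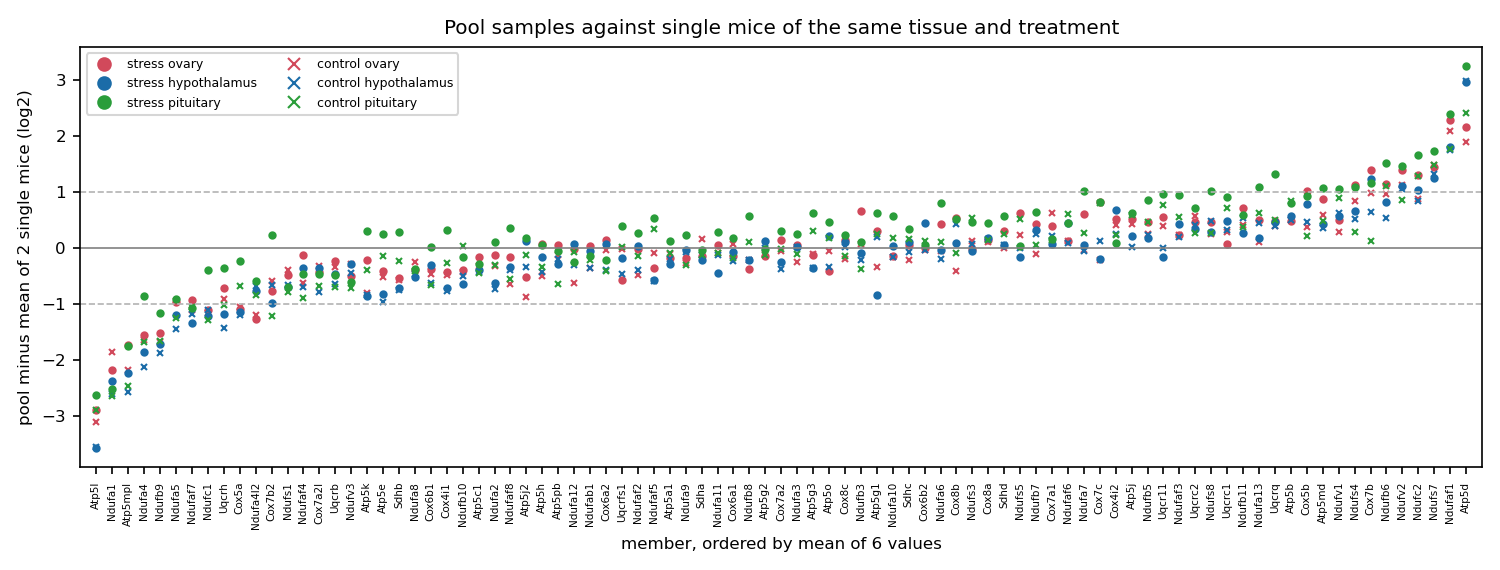
Pool minus the mean of the 2 single mice of the same tissue and treatment (log2, vertical axis) for the 87 protein-coding members, ordered by the mean of 6 values; circles are stress, crosses control, and colours the tissues. Dashed lines mark 2-fold. Atp5l, Ndufa1 and Atp5mpl at one end and Atp5d, Ndufaf1 and Ndufs7 at the other lie beyond 2-fold in all 6 combinations.

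Among the 12 single-mouse arrays, with each tissue's mean removed, the members varied together. The mean correlation over pairs of members was 0.46, against 0.01 over all genes, 0.03 over genes at or above the median level, 0.42 over mitochondrial ribosomal protein genes and 0.35 over cytosolic ribosomal protein genes. These 12 arrays come from 4 mice, and the figures are descriptions. The assembly factors (0.60), complex I (0.53) and complex III (0.50) lay above complex IV (0.45) and complex V (0.39), and complex II was lowest at 0.16. Ndufs8, a core iron-sulfur subunit, followed the mean of the other members most closely (r = 0.98), ahead of Ndufb9 and Ndufaf8 (0.96 each). Sdha ran against it (-0.42), and Ndufs1 (-0.07), Atp5a1 (-0.04), Ndufa4l2 (0.08), Cox4i2 (0.10) and Atp5b (0.12) hardly followed it.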

How the data were processed

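Per the labels' protocols, total RNA was extracted with Trizol and 6 ug was used. The log2 signals are as the authors deposited them, one value per transcript cluster and array; per the submitters' processing notes, Transcriptome Analysis Console was used, and its version, the normalization and any background correction are not given in the sources used here. The depth of an array is not a count, so precision is limited by the number of arrays. The table held 41345 clusters on 18 arrays. Those assigned to exactly 1 gene covered 22180 genes, named through the platform's probe table and RefSeq (GRCm38.p6), where all 89 members matched.

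Fits used limma 3.58.1 in R 4.3.3 (lmFit and eBayes, Benjamini-Hochberg adjustment over all 22180 genes, two-sided, adjusted p under 0.05), and tables and plots Python 3.11.15 with pandas 2.3.3, numpy 2.4.6 and matplotlib 3.10.9. Every p and adjusted p in the text comes from these limma fits across all genes. The tissue fit had the mouse or pool as a block (10 residual degrees of freedom), the stress fits treatment only (4), the high against low fits class and treatment (2), and the interaction fit tissue, block and treatment by tissue (8). Tissues share a mouse or pool per the labels. Ovulation class was not blocked in the main stress fits, but after removing group means arrays of the same tissue and class correlated at 0.359 to 0.727 across treatments (9 pairs) and those of different classes at -0.521 to 0.321 (18 pairs), so the blocked counts and p values are printed beside the stress results. The fits were tested on simulated data with known changes. Noise was drawn independently for each gene and array, with no effect shared by a mouse, pool or class, so the rates need not hold for these arrays. The ovary against hypothalamus fit recovered 81% of 2-fold changes, and 15 of its 193 calls fell on unchanged genes. The stress fits recovered 10%, 8% and 10% of 2-fold and 80%, 80% and 86% of 4-fold changes in ovary, hypothalamus and pituitary. Unchanged genes made up 4 of 94, 1 of 89 and 8 of 104 calls in the same order. The high against low fits recovered 0% of 2-fold changes in each tissue, and 45%, 46% and 0% of 4-fold changes in the same order.

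Members named with values were the isoform sets of complex IV, Ndufa4 and the c subunit, the 4 Sdh genes, up to 3 members of each complex with the largest difference among those that passed in each direction of each tissue pair, and for stress and ovulation the 4 of smallest p in each direction. Other members in counts of 8 or fewer were named after their values were seen. The members, gene lists and tests were chosen with earlier results of these data known. Alternatives were quantile normalization, centred arrays, the mean of a gene's clusters, clusters shared with another gene, a filter at the median level, no pools, each array left out, other blocks and array weights.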

Additional observations from a re-analysis of the deposited data

Results flagged for a closer look

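Within the 6 arrays of a tissue, 8 of 198 groups of values had an extreme array separated from its neighbour by more than Dixon's 95% critical gap, where chance gives about 1 in 20. In ovary the stressed low mouse was lowest for Ndufaf6 (5.57, next 5.80) and Ndufs5 (4.02, next 4.62), and the stressed pool was lowest for Uqcrfs1 (6.62, next 7.10). The control low mouse was highest in ovary for Ndufab1 (6.95, next 6.56) and the control high mouse for Sdhc (9.48, next 9.15). In pituitary the stressed high mouse was lowest for Cox8b (3.23, next 3.93), and the control high mouse was highest for Ndufa2 (10.03, next 9.35) and lowest for Cox4i2 (5.76, next 6.19).

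In 9 of 198 pairs of tissues checked, all 3 stress minus control differences of a member had one sign in one tissue and the other sign in the other (4.55%, against 3.32% over all genes). The interaction, the difference of the stress differences, had an adjusted p of 1 in each. For ovary minus hypothalamus it was -0.72 for Ndufb7 (unadjusted p = 0.00873), -0.40 for Sdhb (0.224), -0.33 for Ndufb8 (0.295) and -0.29 for Cox7a2l (0.223). For ovary minus pituitary it was -0.76 for Cox4i2 (unadjusted p = 0.0133), -0.56 for Ndufa4l2 (0.0732) and 0.38 for Ndufs1 (0.126). For hypothalamus minus pituitary it was 0.61 for Sdhb (unadjusted p = 0.0713) and -0.46 for Ndufa4l2 (0.136).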

How the results depend on the processing

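Leaving out the pools reduced the members passing between ovary and hypothalamus to 17, against 30 with them, and fitting tissues with no replicate block gave 17 between ovary and hypothalamus, 17 between ovary and pituitary and 23 between hypothalamus and pituitary; fewer arrays and the pool-to-mouse spread left in the residual are part of these settings. Leaving out 1 mouse or pool gave 22 to 29, 20 to 26 and 31 to 38 members. Of 67 named tissue calls, 21 were lost with no block, 18 without the pools, 11 without the control pool, 10 without the low control mouse, 6 or 7 without any other mouse or pool, and 3 each with quantile-normalised or centred arrays. In the stress, ovulation and interaction comparisons 0 members passed under every alternative, the ovulation class as a replicate block included, except that 13 of 80 passed as higher for high against low ovulation in hypothalamus when only genes at or above the median level were tested, where 1.77% of the 11090 genes passed as higher and 6.12% as lower. The median for high minus low ranged over 0.14 to 0.27 in ovary, 0.15 to 0.37 in hypothalamus and -0.17 to 0.41 in pituitary when 1 array was left out. Among 2019 values of 155 named results under the alternatives, 24 values of 12 results had another sign than the main value. With 2 to 4 residual degrees of freedom, the counts of 0 in the stress and ovulation comparisons do not show that no member differed.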
